A study of Mus musculus with 4 samples.

Results

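Egln3, Hilpda, Mxi1, Ddit4, Bnip3, Ero1a, Ndrg1, Adm, Egln1 and Hif1a are 10 genes of the cellular response to low oxygen, and each was found as 1 row among the 55414 genes of the deposited matrices. They were chosen by gene symbol from measured values, after ratios between S/S and A/A livers in these same libraries were known. Those ratios are therefore given as a description, without a test. The data were single-cell RNA counts from the livers of 2-month-old mice, with 1 library for each of 4 groups: S/S mice given 500 ng of the cytokine TNF into the peritoneum and sampled 3 h later, A/A mice given the same dose for the same time, S/S mice at baseline and A/A mice at baseline. Each library pooled the cells of 2 mice after low-speed spins that enriched non-parenchymal cells, a Ficoll density step and a flow cytometry sort for macrophages and live cells, so a group had no replicate. The meaning of A and S is not given in the labels. All intervals are 95% intervals for counting error only, and they hold neither the differences between mice nor those between preparations.

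The transcription factor HIF responds to oxygen through an alpha subunit, such as that encoded by Hif1a. Prolyl hydroxylases, among them those encoded by Egln1 and Egln3, mark that subunit for breakdown when oxygen is present, and Egln3 is itself a classical target of HIF. The other members are best known as genes that rise in low oxygen: Hilpda protects lipid droplets by inhibiting lipolysis, Bnip3 marks mitochondria for removal, Ero1a drives disulfide bond formation in the endoplasmic reticulum, Mxi1 opposes Myc, Ddit4 restrains mTOR signalling, Ndrg1 is a stress-response protein, and Adm encodes the vasodilator peptide adrenomedullin. Several answer to other signals as well. Ddit4 is also induced by glucocorticoids and by the unfolded protein response, and Hif1a transcription is raised by inflammatory signalling.

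HIF binds DNA at a short core whose letters are ACGTG or GCGTG, and stretches before 5 start sites are shown. The letters themselves were not used to choose the members. But the members were taken as hypoxia-type genes, so a HIF core before them is not an independent finding. RefSeq promoter windows (GRCm38.p6, a build other than the one used for counting) were found for 9 of the 10 members, not for Ndrg1, and the 250 bases before each start were searched on both strands. Capitals mark ACGTG or GCGTG, or their reverse complements CACGT and CACGC, and CACGTG counts on both strands. The stretches are chr12:54203875-54204124 (minus strand) for Egln3, chr19:53329163-53329412 (plus strand, the second of 3 starts) for Mxi1, chr7:138909520-138909756 (minus strand) for Bnip3 and chr10:59951835-59952020 (minus strand) for Ddit4. Each ends before the first base that the annotation places in an exon. For Hilpda, whose second window overlaps annotated exons, the 30 bases around the core at chr6:29272571-29272600 (plus strand) are given. Unlike the others, this stretch lies at least partly within an annotated exon.
Egln3: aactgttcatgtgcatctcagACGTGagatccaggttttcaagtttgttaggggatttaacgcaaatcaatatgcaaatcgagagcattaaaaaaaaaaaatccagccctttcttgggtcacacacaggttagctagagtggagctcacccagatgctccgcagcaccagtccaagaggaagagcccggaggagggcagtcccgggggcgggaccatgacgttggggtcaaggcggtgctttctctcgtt
Hilpda: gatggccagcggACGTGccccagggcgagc
Mxi1: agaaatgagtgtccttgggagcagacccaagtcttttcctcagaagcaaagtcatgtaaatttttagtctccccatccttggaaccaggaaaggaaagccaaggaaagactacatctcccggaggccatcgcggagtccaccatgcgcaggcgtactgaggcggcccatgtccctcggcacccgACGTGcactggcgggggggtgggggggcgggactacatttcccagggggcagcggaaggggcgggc
Bnip3: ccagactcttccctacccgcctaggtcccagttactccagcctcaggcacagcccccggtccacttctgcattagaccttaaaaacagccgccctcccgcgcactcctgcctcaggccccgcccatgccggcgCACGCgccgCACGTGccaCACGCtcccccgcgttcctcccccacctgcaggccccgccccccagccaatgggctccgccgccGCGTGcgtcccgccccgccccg
Ddit4: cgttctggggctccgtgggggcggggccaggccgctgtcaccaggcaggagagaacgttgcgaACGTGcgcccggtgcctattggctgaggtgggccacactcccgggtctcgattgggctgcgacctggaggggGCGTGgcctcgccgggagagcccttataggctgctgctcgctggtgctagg
The 12 member windows came from 9 members, with 3 for Mxi1 and 2 overlapping ones for Hilpda. The third Mxi1 window lay wholly in annotated exons, and the Hif1a start was not found in the annotated transcripts. The core ACGTG stood in 9 of the 12 member windows (75.0%) and in 16.6% of all 32851 windows of this length. Either core stood in 10 of the 12 (83.3%) and in 38.6% of all windows. Median GC content was 65.0% in the member windows and 52.4% in all windows, and a match of 5 letters is a description, not a binding site.

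The S/S TNF, A/A TNF, S/S baseline and A/A baseline libraries kept 5528, 6452, 4366 and 2830 cells, with a median of 6505, 5866, 5507 and 4724 UMIs (counted transcript molecules) per cell. Library pairs shared 4 to 12 barcodes. Cells took one of 16 types from lists of 8 marker genes, and 27.4, 24.1, 24.3 and 19.6% of the kept cells of these libraries stayed without a type. A type was compared when both libraries held at least 50 of its cells, and a gene when the pair held at least 20 of its UMIs. UMIs were summed per type, scaled by the total of that type and library to CPM, and compared as the log2 ratio of S/S to A/A at a pseudocount of 1 CPM, so that 1 stands for a 2-fold difference. The S/S libraries stood apart in red cell transcripts: the erythroid gate held 679 cells of the S/S TNF library and 44 of the A/A TNF library, and among the 11 other types compared after TNF globin ranged from 392 to 8651 CPM in S/S and from 11.8 to 372 CPM in A/A. Without cells over 1% globin, 38 of 92 pairs were at least 2-fold higher in S/S after TNF, against 3.55% of all pairs. That cut drops single cells and leaves lower globin levels in the other cells, and the part of globin in the ratios was not tested.

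After TNF the shift was shared by many cell types but was far from even. Of 110 pairs of gene and cell type, 94 could be compared in 11 types, and 39 of them (41.5%) had an S/S level at least 2-fold above the A/A level, as did 3.68% of all gene and type pairs. A single pair, Ndrg1 in patrolling monocytes, was at least 2-fold lower, against 3.87% of all pairs. The ratio was above 0 in 82 of the 94 pairs, its interval lay wholly above 0 in 56 and wholly below 0 in 3, and its median was 0.85. Since the members were chosen for these ratios, nothing is read from the distance to the background. The values nearest the 2-fold line were 1.02 for Hif1a in endothelial cells just inside it and 0.998 for Ddit4 in neutrophils and 0.98 for Egln3 in T cells just outside.

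**Figure D1:**
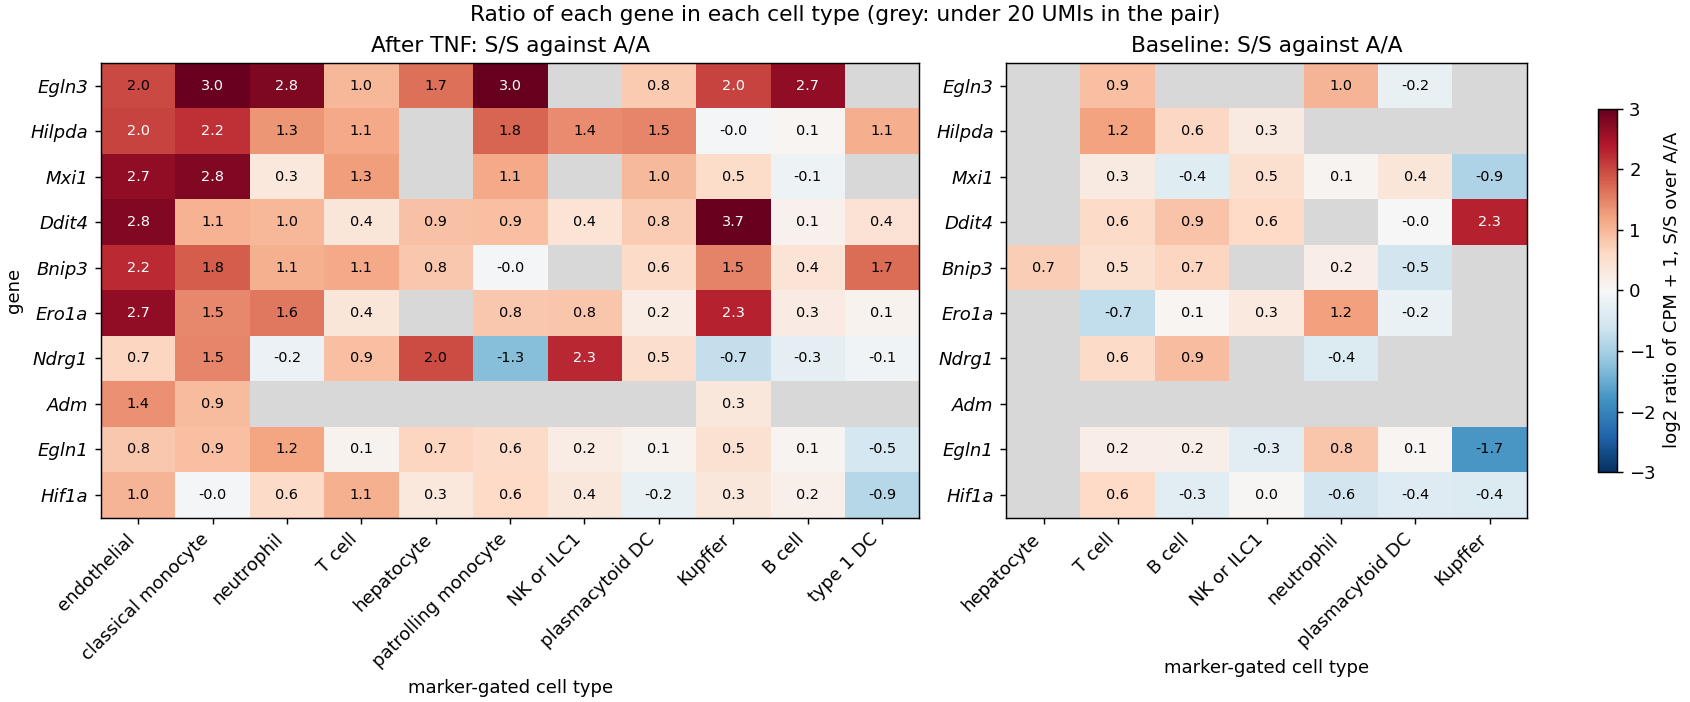
Log2 ratio of S/S to A/A for the 10 genes (down the page) in the marker-gated cell types (across, ordered by median), after TNF on the left and at baseline on the right; grey squares had under 20 UMIs in the pair. Endothelial cells after TNF are above 0 for all 10 genes, between 0.66 and 2.78, and the baseline panel is paler and mixed in sign.

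The cell types fell into an order. Endothelial cells had 8 of 10 genes at least 2-fold higher in S/S, with a median log2 ratio of 2.00 (4.57% of all genes compared in them were that much higher). Classical monocytes had 7 of 10, with a median of 1.46 (3.86% of all genes), and neutrophils 5 of 9, with a median of 1.07 (2.51%). T cells had 4 of 9, with a median of 0.98 (3.44%), Kupffer cells 4 of 10, with 0.50 (7.24%), and patrolling monocytes 3 of 9, with 0.80 (5.56%). Hepatocyte-gated barcodes, which were shallow at a median of 1511 UMIs in S/S and 2098 in A/A, and NK cells or ILC1 had 2 of 6 each, with medians of 0.83 and 0.62 (4.53% and 2.68%). At the other end stood the type 1 dendritic cells (DC) with 2 of 7 and a median of 0.10 (2.71%), plasmacytoid DC with 1 of 9 and 0.58 (1.93%), and B cells with 1 of 9 and 0.13 (2.84%). The median ratio of all genes lay between -0.16 and 0.05 in the 11 types.

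**Figure D2:**
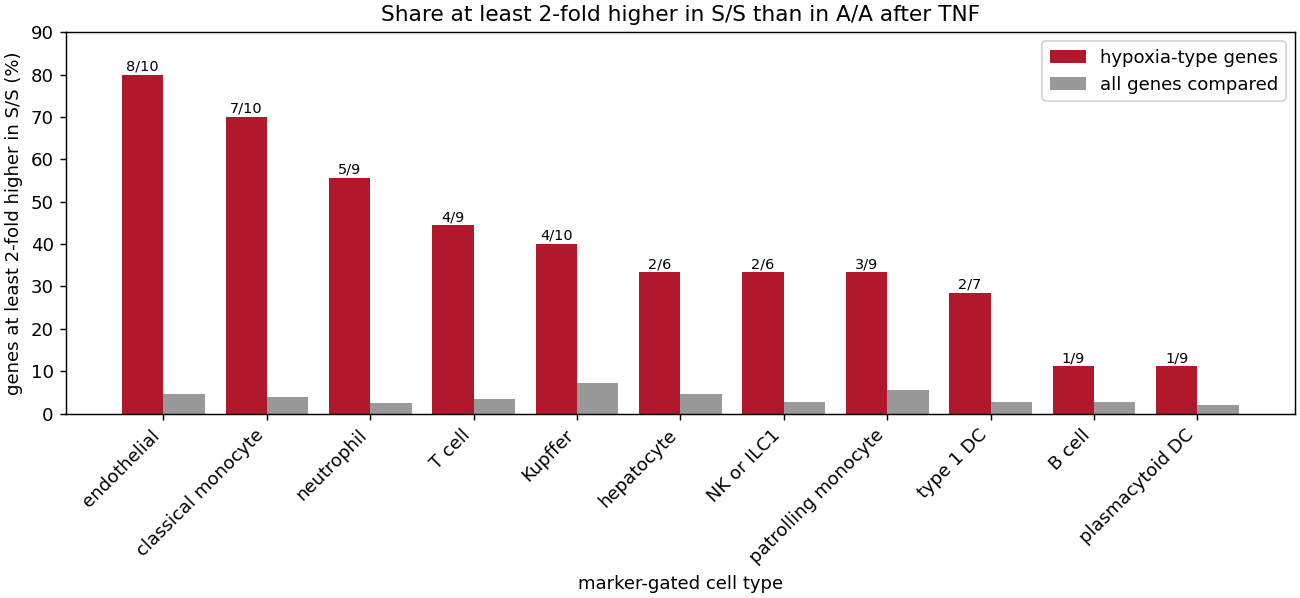
Percent of the hypoxia-type genes compared (red, with counts above the bars) and of all genes compared (grey) with an S/S level at least 2-fold above the A/A level after TNF, by marker-gated cell type. Bars run from 8 of 10 in endothelial cells to 1 of 9 in B cells and plasmacytoid DC, and grey bars lie between 1.93% and 7.24%.

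Egln3, the oxygen-sensing hydroxylase that HIF itself induces, had the highest median log2 ratio of the set after TNF, 2.03. It was above 0 in all 9 types compared and at least 2-fold higher in 7. In neutrophils, 975 UMIs in the S/S TNF library gave 192 CPM, against 177 UMIs and 26.5 CPM in the A/A TNF library, a log2 ratio of 2.81 [2.58 to 3.04]. Neutrophils held the highest Egln3 level of any type in both TNF libraries, and their interval did not overlap that of the next type. In classical monocytes Egln3 stood at 56.5 CPM in S/S and 6.39 CPM in A/A, a log2 ratio of 2.96 [2.57 to 3.36]. In endothelial cells the levels were 60.2 CPM in S/S and 14.5 CPM in A/A, a log2 ratio of 1.98 [1.66 to 2.31]. Within the S/S TNF library the levels of endothelial cells and classical monocytes overlapped, and patrolling monocytes followed at 37.3 CPM. From patrolling monocytes down to NK cells or ILC1 at 2.57 CPM, each type's interval overlapped the next.

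Small counts stand behind the other Egln3 values. Patrolling monocytes had 57 UMIs in S/S against 2 in A/A, a log2 ratio of 3.02 [1.34 to 4.76], and B cells 18 against 2, a log2 ratio of 2.66 [1.32 to 3.50]. Both ratios have wide intervals, and 38.9% of the B cell UMIs in S/S came from 1 cell. Hepatocyte-gated barcodes had 15 and 7 UMIs (1.66 [0.38 to 2.99]). Kupffer cells had 20 and 5 (2.03 [0.74 to 3.34]), but 1 cell gave 10 of the 20 S/S UMIs, and as a mean over cells the ratio was 0.73. T cells (0.98) and plasmacytoid DC (0.79 [-0.24 to 1.78]) were below the 2-fold line. NK cells or ILC1 and type 1 DC, with 4 and 6 UMIs in the pair, were not compared.

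The share of cells with Egln3 differed too. At least 1 Egln3 UMI was seen in 44.2% of S/S neutrophils and 11.2% of A/A neutrophils after TNF, and in 14.7 and 3.27% once every cell was thinned to 1000 UMIs. Among erythroid cells of the S/S TNF library, at a median depth of 6356 UMIs against 5672 in the neutrophils, the share was 1.91%, and 0.148% after thinning. In A/A TNF B cells, at a median of 8593 UMIs against 5895 in the A/A neutrophils, it was 0.840%. Classical monocytes gave 40.1% in S/S and 10.1% in A/A, at median depths of 21491 and 21791 UMIs.

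**Figure D3:**
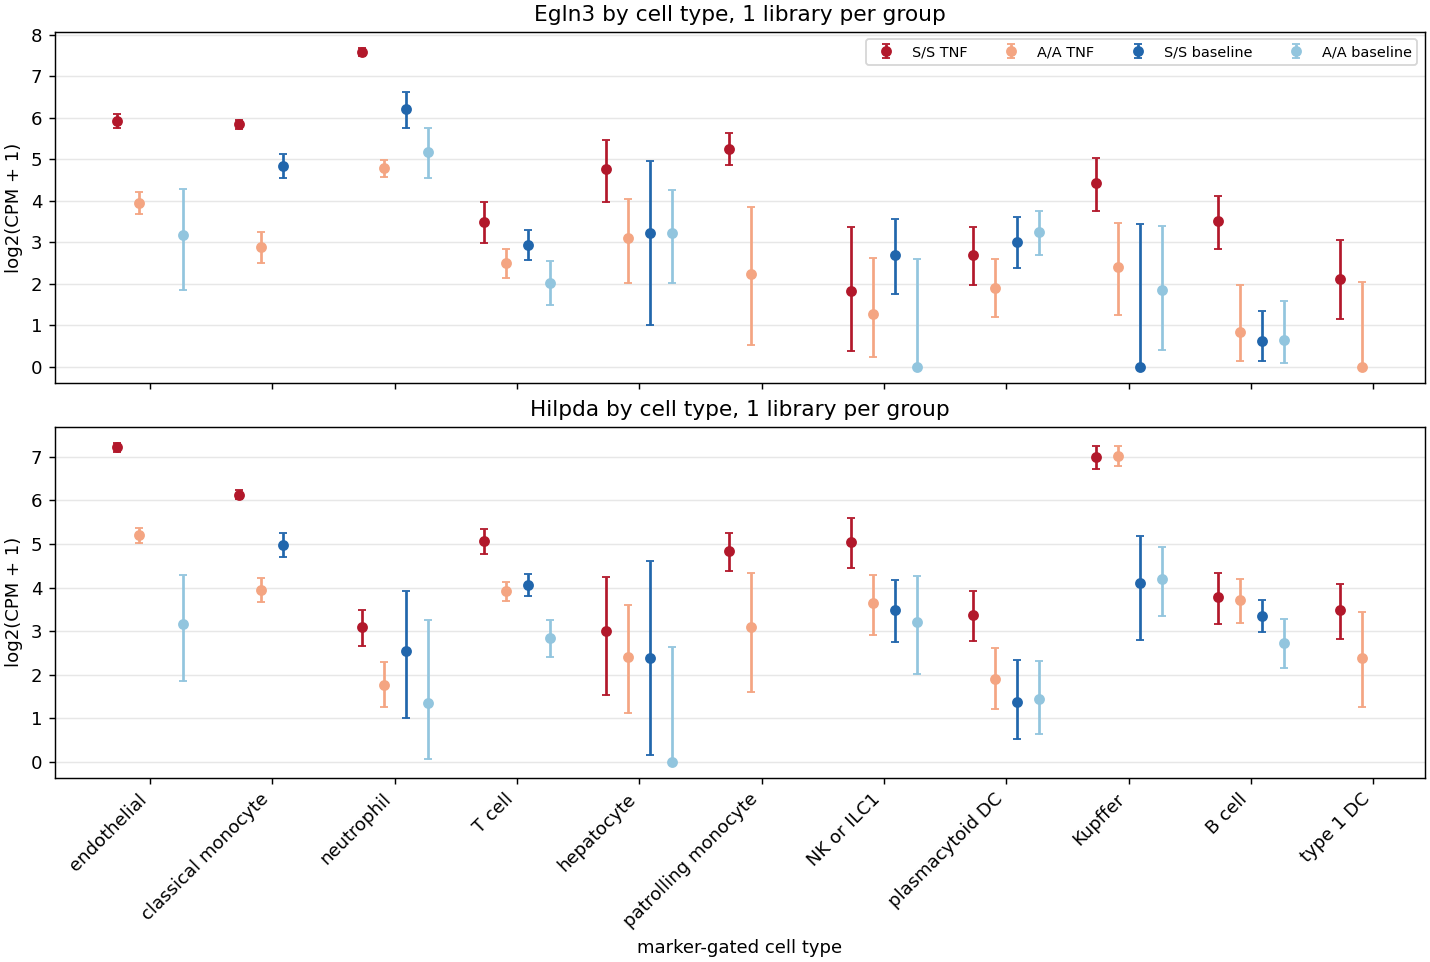
Level of Egln3 (top) and Hilpda (bottom) as log2(CPM + 1) in each marker-gated type with at least 50 cells; points are single libraries and bars are 95% Poisson intervals for counting error. Egln3 is highest in S/S TNF neutrophils, and Hilpda in Kupffer cells lies at the same height in the S/S TNF and A/A TNF libraries.

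Egln1 and Hif1a, which also belong to the oxygen-sensing loop, had the lowest medians of the set after TNF, with Ndrg1 next at 0.52. Egln1, the main hydroxylase of HIF alpha subunits, was above 0 in 10 of 11 types after TNF with a median of 0.46, and at least 2-fold higher only in neutrophils among the 11, at 38.3 CPM in S/S against 16.3 CPM in A/A (1.18 [0.85 to 1.51]). In classical monocytes it had 117 CPM in S/S and 62.3 CPM in A/A (0.89 [0.74 to 1.05]), and in endothelial cells 84.6 and 48.2 CPM (0.80 [0.59 to 1.01]). Among T cells, where Egln1 was well counted, the levels were 71.2 CPM in S/S and 66.2 CPM in A/A (0.10 [-0.12 to 0.33]).

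Hif1a, with the most UMIs of the set in each library, ran both ways. In endothelial cells it stood at 694 CPM in S/S and 341 CPM in A/A (1.02 [0.94 to 1.10]), and in T cells at 226 and 108 CPM (1.06 [0.92 to 1.20]). Thinned to 1000 UMIs, these 2 values were 0.86 and 0.63, below the 2-fold line. In classical monocytes, where the Egln3 ratio was 2.96, Hif1a was level at 508 CPM in S/S and 518 CPM in A/A (-0.03 [-0.09 to 0.03]). Type 1 DC had less of it in S/S, with 45.5 CPM against 83.5 CPM in A/A (-0.86 [-1.29 to -0.43]), and plasmacytoid DC had 113 CPM in S/S and 132 CPM in A/A (-0.22 [-0.44 to -0.01]). Over the 11 types the median was 0.35.

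Hilpda, the lipid droplet protein, was at least 2-fold higher in S/S in 8 of 10 types after TNF, with a median of 1.36. Endothelial cells held 148 CPM in S/S against 35.6 CPM in A/A (2.02 [1.82 to 2.24]), and classical monocytes 69.2 against 14.5 CPM (2.18 [1.90 to 2.47]). Kupffer cells broke the pattern. They had the highest Hilpda level of any type in the A/A TNF library, and their values of 127 CPM in S/S and 129 CPM in A/A gave a log2 ratio of -0.03 [-0.38 to 0.32]. B cells were level too, with 12.7 CPM in S/S and 12.1 CPM in A/A (0.07 [-0.73 to 0.85]). T cells had 32.4 CPM in S/S and 14.1 CPM in A/A (1.14), but 1 cell held 33.7% of the S/S UMIs, and without the top barcode of each library the ratio was 0.60. Lower levels stood behind neutrophils (7.47 CPM in S/S, 2.40 CPM in A/A), plasmacytoid DC (9.29 and 2.75 CPM) and type 1 DC (10.1 and 4.21 CPM), whose ratios of 1.32, 1.46 and 1.09 were 0.75, 0.88 and 0.71 at a pseudocount of 5 CPM.

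Bnip3, the mitochondrial removal receptor, followed in 6 of 10 types, with a median of 1.10. Its largest ratio was in endothelial cells, at 161 CPM in S/S and 33.4 CPM in A/A (2.23 [2.02 to 2.44]). Classical monocytes had 171 CPM in S/S and 48.0 CPM in A/A (1.82 [1.65 to 1.98]), and 70.9% of their cells in S/S held a Bnip3 UMI against 43.0% in A/A. Hepatocyte-gated barcodes held the highest Bnip3 level in both TNF libraries, 249.5 CPM in S/S and 143 CPM in A/A (0.80 [0.45 to 1.15]). Neutrophils had 125 CPM in S/S and 59.2 CPM in A/A (1.07), which was 0.89 after thinning and 0.93 as a mean over cells. Patrolling monocytes were level, at 54.4 CPM in S/S and 56.0 CPM in A/A (-0.04), although 1 cell gave 63.3% of the 30 A/A UMIs. Kupffer cells (1.49 [0.76 to 2.26]) dropped to 0.43 as a mean over cells, and T cells (1.13 [0.55 to 1.69]) to 0.92 without the top barcode of each library.

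Ero1a, the oxidase of protein folding, had its largest ratio in endothelial cells, at 325 CPM in S/S and 50.7 CPM in A/A (2.65 [2.49 to 2.82]). Classical monocytes had 227 CPM in S/S and 82.5 CPM in A/A (1.45 [1.32 to 1.58]), and neutrophils 156 and 51.3 CPM (1.59 [1.40 to 1.77]). The gene was above 0 in all 10 types compared and at least 2-fold higher in 4. It was close to level in type 1 DC (0.10), plasmacytoid DC (0.21), B cells (0.25) and T cells (0.35). Kupffer cells had 114 CPM in S/S and 22.3 CPM in A/A (2.31 [1.70 to 2.95]), with 38.7% of the S/S UMIs in 1 cell and a ratio of 1.72 without the top barcodes.

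Mxi1, an antagonist of Myc, was at least 2-fold higher in 4 of 8 types. Classical monocytes had 32.0 CPM in S/S and 3.83 CPM in A/A (2.77 [2.30 to 3.25]), and endothelial cells 64.5 and 9.32 CPM (2.67 [2.30 to 3.04]). T cells had 19.1 CPM in S/S and 7.43 CPM in A/A (1.25 [0.77 to 1.72]), which was 0.95 at a pseudocount of 5 CPM. Neutrophils were near level at 28.5 CPM in S/S and 22.8 CPM in A/A (0.31 [-0.02 to 0.63]), although this was the type with the highest Egln3. Patrolling monocytes (1.14 [0.10 to 2.31]) were at 0.80 as a mean over cells.

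Ddit4, the brake on mTOR, was above 0 in all 11 types but passed 2-fold in 3. Endothelial cells had 100.2 CPM in S/S and 13.8 CPM in A/A (2.78 [2.47 to 3.09]), and classical monocytes 62.9 and 29.8 CPM (1.05 [0.83 to 1.27]), which was 0.99 with a margin of 3 markers in the gate. Lymphocytes had high levels in both libraries and small ratios. B cells held 95.9 CPM in S/S and 87.8 CPM in A/A (0.13 [-0.17 to 0.42]), and T cells 89.9 and 69.9 CPM (0.36 [0.15 to 0.56]). Plasmacytoid DC, with the highest Ddit4 level in the S/S TNF library, had 122 CPM in S/S and 70.8 CPM in A/A (0.77 [0.53 to 1.02]). Kupffer cells gave the largest ratio of the 94 pairs compared after TNF, 90.5 CPM from 88 UMIs in S/S against 7 UMIs in A/A (3.71 [2.71 to 4.79]). That value leans on few cells: 61.4% of the S/S UMIs came from 1 barcode, 8.23% of the S/S and 2.13% of the A/A Kupffer cells held a UMI, and without the top barcodes the ratio was 2.55.

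Ndrg1 was the least uniform member. It was above 0 in 6 of 11 types and at least 2-fold higher in 3: classical monocytes (44.0 CPM in S/S, 15.3 CPM in A/A, 1.46 [1.17 to 1.76]), NK cells or ILC1 (24.4 and 4.30 CPM, 2.26 [1.04 to 3.49]) and hepatocyte-gated barcodes (36.6 and 8.66 CPM, 1.96 [0.81 to 3.18]). The last 2 rest on 19 and 21 UMIs in S/S. Endothelial cells held far more of it than the other types, 444.5 CPM in S/S and 282 CPM in A/A, at a ratio of 0.66 [0.57 to 0.74]. Patrolling monocytes had 32.8 CPM in S/S and 80.3 CPM in A/A (-1.27 [-1.87 to -0.66]), and neutrophils 53.4 and 60.4 CPM (-0.17 [-0.40 to 0.05]).

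Adm, the vasodilator peptide, was highest in endothelial cells in both TNF libraries, with 93.0 CPM in S/S and 35.5 CPM in A/A (1.36 [1.14 to 1.59]). It had enough UMIs in 2 other types, classical monocytes (3.39 CPM in S/S, 1.28 CPM in A/A, 0.95) and Kupffer cells (17.5 and 13.7 CPM, 0.33). At baseline no type reached 20 Adm UMIs in a pair.

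Other properties of the libraries moved with genotype in the same types, and their part in the ratios was not tested. Endothelial cells had a median of 6460 UMIs in S/S and 3201 in A/A after TNF. Thinned to 1000 UMIs per cell, their ratios were 2.44 for Egln3, 2.10 for Hilpda and 2.77 for Mxi1. They were 2.17 for Ddit4, 2.28 for Bnip3 and 3.23 for Ero1a. Of these, Ddit4 fell below its unthinned counting interval (2.78 [2.47 to 3.09]). Egln3 (1.98 [1.66 to 2.31]) and Ero1a (2.65 [2.49 to 2.82]) rose above theirs. Hilpda, Mxi1 and Bnip3 stayed within theirs. Neutrophils had a mean of 6.02% mitochondrial UMIs in S/S and 3.08% in A/A. All 8 endothelial markers were present, at a summed 4339 CPM in S/S and 4933 CPM in A/A. In Kupffer-gated cells, all 8 classical monocyte markers were present in both libraries, at a summed 3445 CPM in S/S and 434 CPM in A/A, beside 4710 and 5390 CPM for the Kupffer markers themselves. T cells held 1893 CPM of NK or ILC1 markers in S/S (6 of 8 seen, Klra4 and Klra8 at 0) and 463 CPM in A/A (7 of 8, Klra4 at 0). Neutrophil markers in patrolling monocytes summed to 325 CPM in S/S (7 of 8, Stfa2l1 at 0) and 3407 CPM in A/A (8 of 8), and in type 1 DC to 82.1 CPM in S/S (7 of 8, Mmp9 at 0) and 1225 CPM in A/A (7 of 8, Stfa2l1 at 0).

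The heat-shock genes Hspa1b and Hspa1a, which respond to handling and protein stress, also differed. Over the types with at least 20 UMIs, the median log2 ratio of Hspa1b after TNF was 4.66 in 9 types, and that of Hspa1a 3.27 in 9. Hspa1b was at least 2-fold higher in 8 of its 9 types, with ratios from 0.37 to 5.81. It had 100.1 CPM in S/S and 1.93 CPM in A/A plasmacytoid DC, 84.8 and 1.43 CPM in NK cells or ILC1, and 8.42 and 1.77 CPM in endothelial cells. Neutrophils held 37 UMIs of it in S/S and 36 in A/A, among 5088960 and 6668042 UMIs of all genes. At baseline the direction was the other way, with a median log2 ratio of -2.59 for Hspa1b in 4 types.

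At baseline fewer members passed 2-fold. Of 70 pairs in 7 types, 42 could be compared, 4 (9.52%) were at least 2-fold higher in S/S, against 7.47% of all pairs, and the median was 0.23. The interval lay wholly above 0 in 12 of the 42 and wholly below 0 in 5. With a margin of 1 marker in the gate, 11 of 53 pairs (20.8%) were at least 2-fold higher, against 7.84% of all pairs. One pair was at least 2-fold lower, against 3.82% of all pairs. The 4 higher pairs were Ddit4 in Kupffer cells (56.7 CPM in S/S, 10.6 CPM in A/A, 2.32 [1.15 to 3.56], from 21 and 8 UMIs; 7.29% of all genes compared in Kupffer cells were that much higher), Hilpda in T cells (15.6 and 6.17 CPM, 1.21 [0.72 to 1.71]; 7.09%), and Ero1a (51.8 and 21.5 CPM, 1.23 [0.32 to 2.20]) and Egln3 (72.9 and 35.3 CPM, 1.03 [0.29 to 1.80]) in neutrophils (9.16%). Egln3 in neutrophils lay below the 2-fold line under several settings, down to 0.85, and Hilpda in T cells was at 0.88 at a pseudocount of 5 CPM. The lower pair was Egln1 in Kupffer cells, with 13.5 CPM in S/S and 47.6 CPM in A/A (-1.75 [-3.26 to -0.45]) from 5 and 36 UMIs, and it was -0.58 with a margin of 1 marker in the gate. Among the members compared, none of 7 in plasmacytoid DC (3.21% of all genes at least 2-fold higher), none of 8 in B cells (5.42%) and none of 6 in NK cells or ILC1 (8.73%) passed 2-fold. In hepatocyte-gated barcodes, where 22.9% of all genes did, Bnip3 was the 1 member compared, at 0.75 [0.07 to 1.40]. Hif1a was lower in S/S neutrophils (-0.55 [-1.06 to -0.06]), plasmacytoid DC (-0.39 [-0.61 to -0.17]) and B cells (-0.35 [-0.59 to -0.11]) and higher in T cells (0.59 [0.44 to 0.74]). Endothelial cells and classical monocytes, the leading types after TNF, were too few for a baseline comparison, with 32 S/S endothelial cells and 35 A/A classical monocytes.

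Of the 41 pairs compared at both times, 26 were above 0 at both, 3 were below 0 at both, and 11 were above 0 after TNF and below 0 at baseline. The ratio was larger after TNF than at baseline in 32 of the 41, with medians of 0.46 and 0.20. No share over all genes was counted for these signs and orders. The members were chosen with the ratios known, so nothing is read from these counts. All 4 pairs at least 2-fold higher at baseline were also at least 2-fold higher after TNF, where 10 of the 41 were. Among all gene and type pairs the share was 3.68% after TNF, over 11 types, and 7.47% at baseline, over 7 types.

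**Figure D4:**
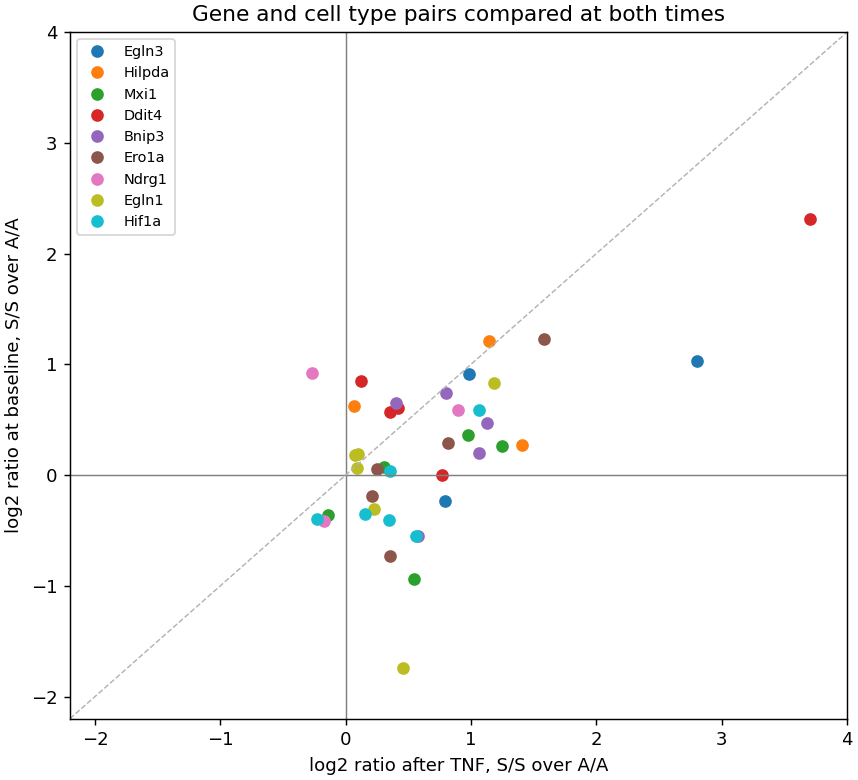
Log2 ratio of S/S to A/A after TNF (horizontal) and at baseline (vertical) for the 41 pairs of gene and cell type compared at both times, with the line of equal ratios dashed. Most points lie to the right of 0 and below the dashed line, as 32 of the 41 had the larger ratio after TNF. The members were chosen with the ratios known, and no share over all genes was counted.

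Set against the baseline library of the same genotype, TNF libraries differed in both genotypes, though both TNF libraries were counted with another software version than both baseline libraries, and treatment and version cannot be told apart. Egln3 in neutrophils had 192 CPM in the S/S TNF library against 72.9 CPM at S/S baseline (1.38 [0.96 to 1.84]), and 26.5 CPM in the A/A TNF library against 35.3 CPM at A/A baseline (-0.40 [-1.01 to 0.27]). Hilpda in Kupffer cells was higher after TNF in both genotypes alike, at 127 against 16.2 CPM in S/S (2.89 [1.77 to 4.23]) and 129 against 17.2 CPM in A/A (2.84 [2.06 to 3.72]). Hif1a in neutrophils stood at 365 against 90.7 CPM in S/S (2.00 [1.62 to 2.40]) and at 246 against 133 CPM in A/A (0.88 [0.57 to 1.21]). Mxi1 in neutrophils ran downward in both genotypes, at 28.5 CPM after TNF against 275 CPM at baseline in S/S (-3.23 [-3.55 to -2.91]) and 22.8 against 262 CPM in A/A (-3.47 [-3.78 to -3.15]). These comparisons share libraries with those between genotypes, so the 2 sets of ratios are not independent of each other.

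Further HIF targets, none of them a member, had 22.1% of 235 pairs at least 2-fold higher in S/S after TNF, against 3.68% of all pairs. Their median was 0.35 over 32 genes compared. Like the members, this list and those that follow were chosen with earlier results of these data known. In this list 13 of 29 genes were that much higher in endothelial cells (4.57% of all genes compared), 11 of 18 in Kupffer cells (7.24%) and 0 of 23 in plasmacytoid DC (1.93%). Vegfa, the angiogenic growth factor, had a median log2 ratio of 1.96 in 5 types. It was at least 2-fold higher in 3 of them and at least 2-fold lower in 1, with ratios from -1.12 to 3.34. At the other end were Zfp395 with -0.26 in 6 types and the glucose transporter Slc2a3 with -0.21 in 7. Glycolytic enzymes had 19 of 133 pairs (14.3%) at least 2-fold higher and none lower, with a median of 0.46. Of these, Tpi1 (0.95) and Pgam1 (0.63) led in 11 types each, and Pfkp (-0.05) and Hk1 (0.18) came last in 10 each. In endothelial cells 8 of 12 of these enzymes were at least 2-fold higher (4.57% of all genes compared). The rest of the oxygen-sensing machinery, such as the HIF partner Arnt and the ubiquitin ligase component Vhl, had 1 of 102 pairs (0.980%) higher and 2 lower, with a median of 0.01. Elob and Eloc were level at 0.05 and 0.04 in 11 types, while Epas1, another HIF alpha subunit, had -0.29 in 8 and Ube2d1 -0.27 in 10.

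Other programmes that can induce some members gave these values after TNF, where 3.68% of all pairs were at least 2-fold higher and 3.87% lower. Glucocorticoid targets had 7.14% of 112 pairs at least 2-fold higher and as many lower, with Per1 at a median of 0.65, Klf9 at 0.42, Zbtb16 at -0.72 and Cebpd at -0.42. Genes of the integrated stress response had 11.9% of 126 pairs higher and 9.52% lower, with Slc7a11 at 0.68, Atf3 at 0.66, Phgdh at -0.43 and Asns, the asparagine synthetase, at -1.54. The NF-kB response, the main transcriptional arm of TNF signalling, had 8.02% of 212 pairs higher and 8.96% lower, with Cxcl1 at 1.08, Cxcl2 at 0.59, Tnf at -0.50 and Ccl2 at -0.99. Dissociation stress genes had 19.9% of 166 pairs higher and 6.63% lower, with a median of 0.13 over all their pairs. Hspa1b and Hspa1a, described above, were at least 2-fold higher in 8 and 7 of their 9 types. Nr4a1 at -0.36 and Fosb at -0.69 were the lowest. Red cell transcripts had 79 of 97 pairs (81.4%) higher and none lower, led by Hba-a1 at 5.17 and Hbb-bt at 5.01, with Fech at 0.98 and Ube2l6 at -0.08 last.

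At baseline, other HIF targets had 9.84% of 122 pairs at least 2-fold higher in S/S and 3.28% lower, against 7.47 and 3.82% of all pairs. They were led by Ankrd37 (1.33 in 4 types) and Plin2 (0.68 in 7), with Pfkfb3 (-0.69 in 5) and Zfp395 (-0.61 in 4) at the low end. Glycolytic enzymes had 10.8% of 83 pairs higher and 1.20% lower, with Gapdh at 0.98, Tpi1 at 0.81, Hk1 at -0.13 and Pfkp at 0.23. Oxygen-sensing machinery had 1.85% of 54 pairs higher and as many lower, with Elob at 0.72 and Arnt at -0.26. Glucocorticoid targets had 12.7% of 63 higher and 6.35% lower, with Fkbp5 at 1.36 and Lpin1 at -0.60, and integrated stress response genes 5.36% of 56 higher and 3.57% lower, with Cebpb at 0.71 and Sesn2 at -0.64. Dissociation stress genes had 18.0% of 89 higher and 15.7% lower, with Ier3 at 1.63 and Jun at 1.56 as the highest. NF-kB response genes had 14.4% of 90 higher and 8.89% lower, with Ccl3 at 1.70 and Bcl3 at -0.51, and red cell transcripts 79.6% of 49 higher and none lower, with Hbb-bt at 6.02.

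**Figure D5:**
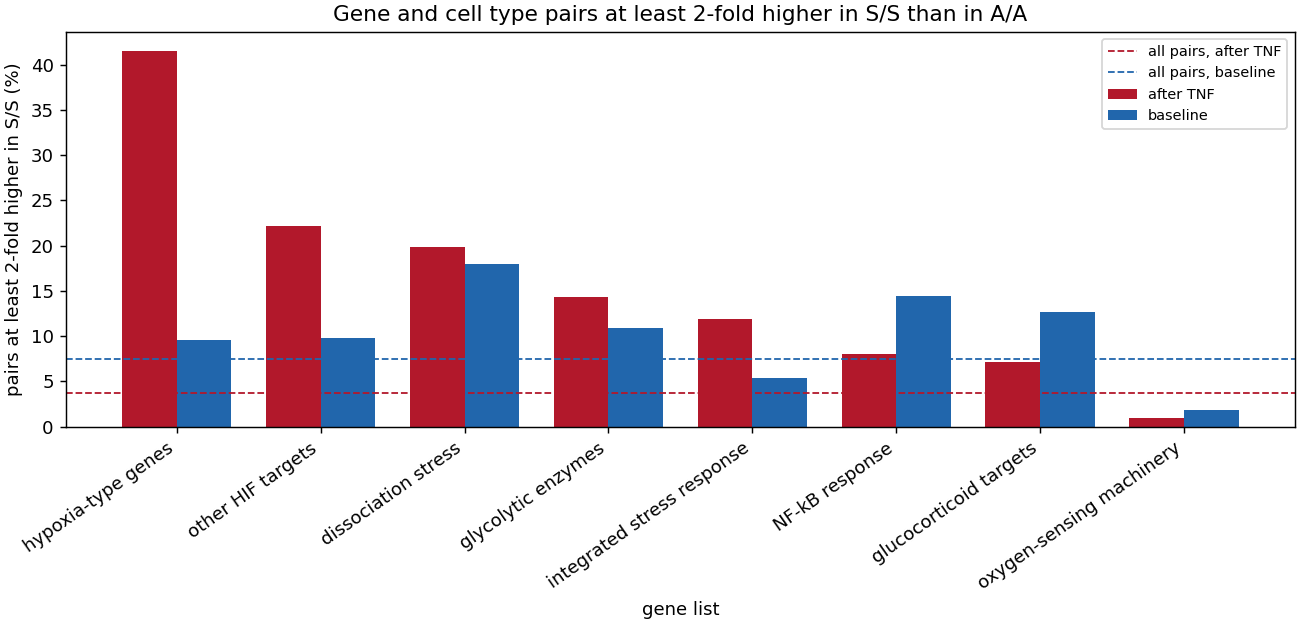
Percent of gene and cell type pairs with S/S at least 2-fold above A/A for each gene list, after TNF (red) and at baseline (blue), with the share among all pairs as dashed lines (3.68% after TNF and 7.47% at baseline); red cell transcripts, at 81.4 and 79.6%, are left off the plot. The hypoxia-type genes were chosen on these ratios, and the other lists were chosen with earlier results of these data known. The hypoxia-type genes stand at 41.5% after TNF and 9.52% at baseline, and other HIF targets at 22.1 and 9.84%.

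Across 42 units of library and cell type with at least 50 cells, the genes whose log2(CPM + 1) was most like Egln3 were Furin (Pearson's r 0.77), Bnip3 (0.76), Socs3 (0.72), Dmxl2 (0.72) and Slc16a3 (0.72), among 13753 genes ranked. Those most like Hilpda were Ifrd1 (0.78), Myc (0.76), Calhm6 (0.75), Rcc1 (0.74) and Cndp2 (0.73). Egln3 and Hilpda themselves correlated at 0.24. Units of 1 library share its mice, preparation and depth, so these values only describe the 4 libraries.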

How the data were processed

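The deposited matrices held UMI counts per gene and barcode, made by the authors with Cell Ranger against mm39 (version 6.1.2 after TNF, version 7.1.0 at baseline), per the submitters' processing notes and the file headers. Whether introns were counted is not given in the sources used here. The members and gene lists were chosen with earlier results of these data known. Every member is named; from each other list the 2 highest and 2 lowest genes by median ratio were named, among genes compared in at least 4 types. One gene that this rule names is not reported here. Kept barcodes had 300 or more genes detected and no more than 20% of UMIs from mitochondrial genes. A marker was seen in a cell when its share exceeded the library mean, and a cell took the type with at least 3 markers seen and at least 2 more than the next type. No doublet caller was run; the margin leaves out cells with close marker counts of 2 types, but gated cells could still hold markers of another type. Typed cells exactly at a limit of the gate numbered 716, 888, 434 and 335 in the S/S TNF, A/A TNF, S/S baseline and A/A baseline libraries. Untyped cells just short of a limit were not counted. Summed counts were compared as log2 ratios with exact conditional binomial intervals, and levels carry exact Poisson intervals. With 1 library per group no test was made. The ratio was tested on simulated Poisson counts with known fold changes. Those counts held no spread between cells, mice or preparations, so they cannot show how the ratio behaves under such spread. Of 149 listed genes, members included, 1 was not found. Scripts ran under Python 3.11.15 with pandas 2.3.3, scipy 1.17.1, numpy 2.4.6 and matplotlib 3.10.9.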

Additional observations from a re-analysis of the deposited data

Results flagged for a closer look

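Ero1a in T cells differed in opposite directions between the TNF and baseline libraries of the 2 genotypes. In S/S it had 50.8 CPM after TNF against 29.5 CPM at baseline (log2 ratio 0.76 [0.46 to 1.06]). In A/A it had 39.5 CPM after TNF against 49.5 CPM at baseline (-0.32 [-0.53 to -0.10]). The difference between the ratios was 1.08, and with 1 library per group it was not tested. Both TNF libraries were counted with another software version than both baseline libraries, so treatment and version cannot be told apart. Members and types with values in both genotypes were searched for intervals on opposite sides of 0. This was the only pair found, and no share over all genes was counted. After TNF the T cell gate also held more NK or ILC1 markers in S/S than in A/A, as given above.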

How the results depend on the processing

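No paired analysis was possible because each group has 1 library, and leaving out a replicate was not possible for the same reason. The 39 pairs at least 2-fold higher after TNF became 20 when cells were thinned to 1000 UMIs, where only 42 pairs kept enough UMIs (4.12% of all pairs were that much higher), and ranged from 29 to 45 under the other settings (33.0 to 45.1% of the pairs compared, with 1.95 to 7.31% of all pairs). The 1 pair lower after TNF became 0 with a margin of 3 markers or with thinning, and 2 with 500 genes and 10% mitochondrial UMIs as the cell limits, with no minimum of UMIs or as a mean over cells. At baseline, the 4 higher pairs became 11 of 53 with a margin of 1 marker (20.8%, with 7.84% of all pairs), 11 of 66 with no minimum (16.7%, with 13.1%), and 2 with a margin of 3, a pseudocount of 5 CPM, at least 50 UMIs or thinning. The 1 lower pair became 0 with a margin of 1, at least 50 UMIs or thinning, 5 with no minimum, and 2 without mitochondrial, globin and Rn18s-rs5 UMIs in the total, without the top barcode or as a mean over cells. The Egln3 median after TNF (2.03 over 9 types) ran from 1.46 at a pseudocount of 5 CPM to 2.83 without the top barcode, over 5 types. The medians that crossed the 2-fold line or 0 were those of Hilpda after TNF (1.36 to 0.93 at a pseudocount of 5 CPM), of Hilpda at baseline (0.63 to 1.002 with a margin of 3) and of Egln3 at baseline (0.91 to -0.0046 with no minimum). Of the 45 pairs past 2-fold in either direction, all those with a value under a setting (21 to 45) kept their sign, and 17 of 21 stayed past 2-fold after thinning. The size of the ratios held less well when depth was evened. Among all member pairs with a value after thinning, 24 lay within their unthinned counting interval and 33 outside it. Under each other setting 0 to 11 pairs lay outside. Leaving out each library's deepest cells was an alternative added after seeing the data. One library of pooled mice per group limits every value.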
